A study of Mus musculus with 3 samples.

Results

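A set of 7 genes of the calcium route from the T cell receptor were described in splenic donor T cells after allogeneic transplantation: Stim1, Stim2 and Orai1, which carry calcium entry, Calm2 and Calm3, which encode calmodulin, Camk4, a calmodulin-dependent kinase, and Nrgn, which encodes the calmodulin-binding protein neurogranin. They are 7 of the 18029 genes in the count table and were chosen by their measured differences between doses in these same pools. Those differences are therefore given as a description, with no p-value. B6D2F1 recipients received B6 bone marrow, B6 T cells and a small number of TEa T cells, which carry a transgenic T cell receptor, and all groups shared this graft. Daily doses of saline, 5 mg/kg cyclosporine (CSA) or 50 mg/kg CSA were given on days 0 to 6. Spleens were taken on day 7 for sorting of the donor T cells of the CD4+ and CD8+ lineages. Each group held 6 mice in 3 hashtagged pools of 2 mice, and each group was 1 droplet capture, so a capture and its treatment cannot be told apart. The labels used here give no age of the mice.

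When the T cell receptor empties the calcium store of the endoplasmic reticulum, STIM1 and STIM2 sense the loss and open the ORAI1 channel in the plasma membrane. Calcium that enters binds calmodulin, which activates the phosphatase calcineurin and the calmodulin-dependent kinases. CSA, bound to cyclophilin, blocks calcineurin, and calcium entry lies upstream of that step. Neurogranin is best known from neurons, where its IQ motif binds calmodulin at low calcium, and its RNA is also known from platelets.

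Nrgn was 17.97-fold lower at 50 mg/kg than with saline in CD4+ cells and 7.68-fold lower in CD8+ cells, the largest difference among the 7 genes at this dose. Stim1, Stim2 and Orai1 were 1.33-fold to 1.67-fold lower in both lineages. Calm2 and Calm3 were 1.37-fold to 1.55-fold higher relative to the median gene, but not relative to all UMIs in CD8+ cells. Stim1 and Stim2 were lower at 5 mg/kg on either scale, whereas Nrgn and Orai1 were not lower with TMM scaling.

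Counts of unique molecular identifiers (UMIs) were added up per pool and lineage, leaving out TEa cells. A pool held 875 to 1479 CD4+ cells and 3994968 to 7592334 UMIs, or 692 to 1615 CD8+ cells and 4392100 to 11454636 UMIs. The median depth of a CD4+ cell was 3097, 4396 and 5979.5 UMIs in the saline, 5 and 50 mg/kg groups, and that of a CD8+ cell 4108, 6121.5 and 7183 UMIs. Across the captures, 218 barcode sequences occurred in 2 captures. No Cd8a UMI was found in CD4+ cells and no Cd4 UMI in CD8+ cells. The other 6 T cell markers, Cd8b1 among them, had UMIs in CD4+ cells of every group. Whether the lineages had been assigned by Cd8a and Cd4 was not tested, so purity is not read from their absence. The 7 T cell markers summed to at least 4061 CPM (UMIs per 1000000 UMIs of the pool) in every pool. Unless stated otherwise, levels are CPM with TMM scaling, which sets the middle of all genes equal between pools, and changes are log2 changes ± SE from edgeR over 3 pools a group. Scaled by library size instead, the median gene was lower by -0.37 and -0.45 (log2) in CD4+ cells at 5 and 50 mg/kg, and by -0.43 and -0.53 in CD8+ cells, so a gene that was higher by less than this with TMM scaling was lower with library size. The split of genes called higher and lower at 50 mg/kg was 3669 to 3785 in CD4+ cells with TMM and 1599 to 6239 with library size, and in CD8+ cells 4021 to 4003 and 1690 to 6794.

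All 7 genes passed the filter on low counts in both lineages. Of the 7, 6 were past the adjusted threshold of 0.05 at 50 mg/kg against saline in CD4+ cells (all but Camk4), beside 70.5% of the 10568 genes tested. In CD8+ cells all 7 were past it, beside 74% of 10841 genes. At 5 mg/kg the numbers were 6 and 7, beside 51.7% and 60.2%, and between the doses 5 and 4, beside 41.2% and 41%. The list was drawn up from these contrasts, so nothing is read from these counts. The same holds below for pools that do not overlap, for which the share over all genes is not given.

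**Figure D1:**
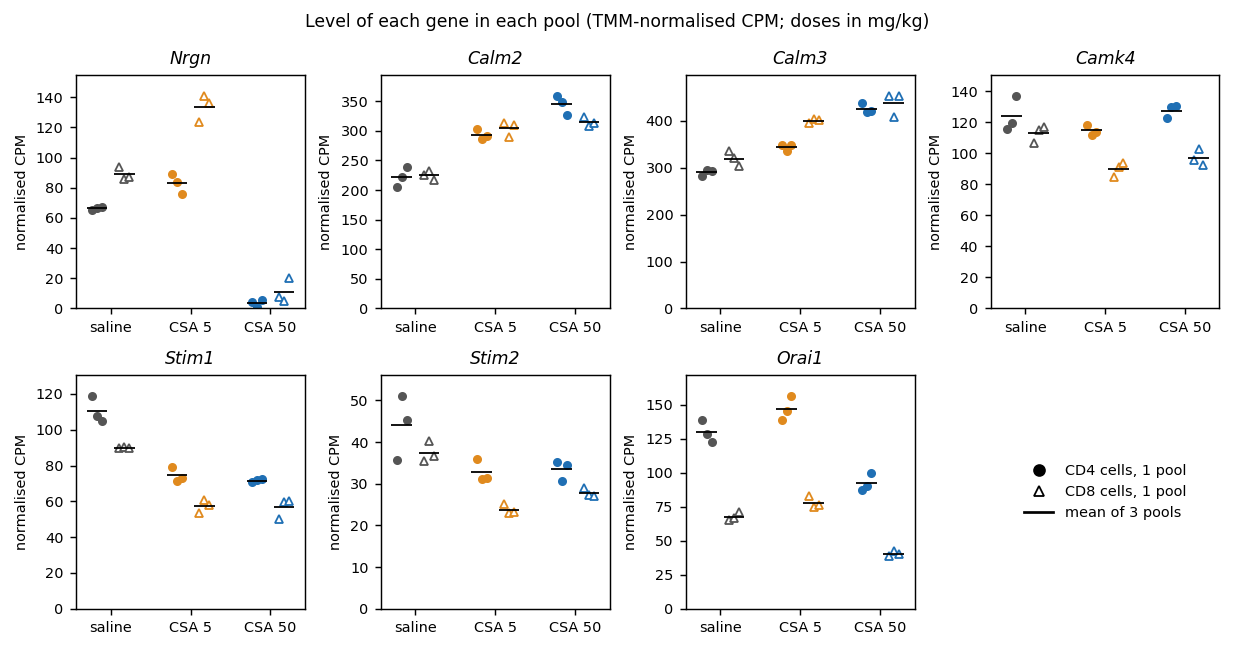
Level of each of the 7 genes in every pool (vertical axes, TMM-normalised CPM from 0; horizontal axes, saline and CSA at 5 and 50 mg/kg). Filled circles are CD4+ sums, open triangles CD8+ sums and bars the mean of 3 pools; Nrgn lies at 1.17 to 20.02 CPM at 50 mg/kg and at 65.4 CPM or above in all other pools.

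The sequence of Nrgn is shown because its calmodulin-binding motif is what joins it to this pathway. The gene lies on the minus strand at chr9:37544492-37552904 (GRCm38, GENCODE M21), and its coding sequence, split over 2 coding exons, has 237 bases with the stop codon and encodes 78 residues. Capitals mark codons 33 to 43, the 33 bases whose translation matched the IQ consensus.
Nrgn: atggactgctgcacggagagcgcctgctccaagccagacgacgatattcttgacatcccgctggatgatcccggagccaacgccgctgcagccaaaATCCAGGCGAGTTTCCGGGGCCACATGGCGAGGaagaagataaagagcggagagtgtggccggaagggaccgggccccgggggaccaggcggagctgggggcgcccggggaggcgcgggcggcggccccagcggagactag

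In CD4+ cells, Nrgn stood at 65.4, 66.4 and 67.2 CPM in the saline pools, at 89.1, 83.8 and 76.0 CPM at 5 mg/kg and at 4.31, 1.17 and 5.37 CPM at 50 mg/kg. In CD8+ cells the pools stood at 94.0, 85.7 and 86.9 CPM, at 124, 141 and 136 CPM, and at 7.63, 4.78 and 20.02 CPM. In both lineages every pool at 50 mg/kg was below every pool of the other groups, and every pool at 5 mg/kg was above every saline pool. The change at 50 mg/kg was -4.17 ± 0.17 in CD4+ cells and -2.94 ± 0.22 in CD8+ cells, and over the alternatives run it lay from -4.61 to -3.76 in CD4+ and from -4.10 to -2.60 in CD8+ cells. Pool 3 of the 50 mg/kg group held its highest Nrgn level in both lineages, and without it the change was -4.60 in CD4+ and -3.84 in CD8+ cells. The 5 mg/kg difference was 0.31 ± 0.10 in CD4+ and 0.60 ± 0.16 in CD8+ cells with TMM scaling, but -0.045 and 0.17 with library size, so its direction in CD4+ cells depends on the scale.

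Nrgn UMIs were found in a minority of the cells of every pool. In CD4+ cells the saline pools held 312, 448 and 440 Nrgn UMIs in 177, 246 and 244 cells, the 5 mg/kg pools 345, 371 and 433 UMIs in 136, 134 and 147 cells, and the 50 mg/kg pools 25, 7 and 36 UMIs in 3, 6 and 22 cells. Of the 25 UMIs in the first 50 mg/kg pool, 23 came from 1 cell, so its level rests on that cell. The 10 cells with the most Nrgn held 22.8% to 28.4% of the Nrgn UMIs of a CD4+ saline pool and 33.9% to 48.2% of those of a 5 mg/kg pool. In CD8+ cells the saline pools held 771, 852 and 834 UMIs in 385, 464 and 404 cells, the 5 mg/kg pools 502, 779 and 1070 UMIs in 176, 254 and 380 cells, and the 50 mg/kg pools 55, 36 and 196 UMIs in 40, 27 and 105 cells.

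Depth per cell differed between the groups, so shares of cells with a UMI were also computed at a fixed 2000 UMIs per cell, leaving out shallower cells. These numbered 395, 452 and 80 of the CD4+ and 121, 83 and 8 of the CD8+ cells of the saline, 5 and 50 mg/kg groups. At this depth the share of CD4+ cells with a Nrgn UMI was 10.5% ± 0.172 (SD, n = 3 pools), 7.47% ± 0.765 and 0.345% ± 0.355 in these groups. The unthinned shares were 16.4%, 14.2% and 0.987%. For CD8+ cells the thinned shares were 14.7% ± 0.810, 13.8% ± 1.73 and 1.33% ± 0.931, and the unthinned ones 27.0%, 29.7% and 4.71%. In CD8+ naive cells (cluster C7), the cluster with the lowest share under saline, the thinned share was 3.42% with saline (median depth before thinning 3499 UMIs). The unthinned share was 5.22% (6 of 115 cells). In the 50 mg/kg capture 0 of 161 such cells (median depth 4995 UMIs) had a Nrgn UMI, which allows an unthinned share of up to 1.86%. The unthinned 50 mg/kg share of all CD8+ cells lay above this limit and that of CD4+ cells below it. The limit is that of 1 cluster and the shares are those of all cells, so nothing is read from this order. At 5 mg/kg the mean thinned share lay below that with saline in both lineages, in CD8+ cells with overlapping pools. The TMM level lay above that with saline in both, and no order is read from the share.

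**Figure D2:**
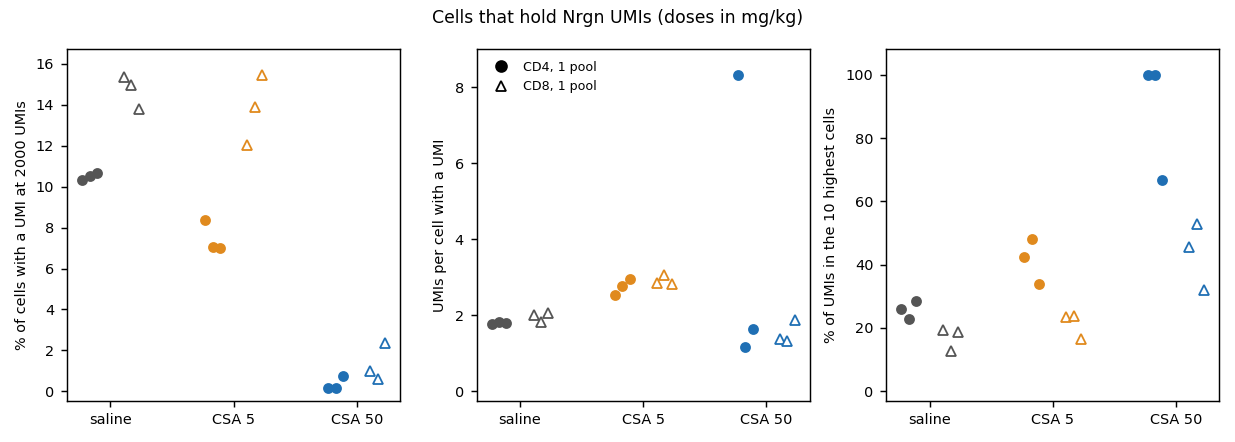
Cells holding Nrgn, 1 point a pool (filled, CD4+; open, CD8+): percent of cells with a UMI at 2000 UMIs per cell (left), UMIs per cell among cells with a UMI (middle) and percent of the Nrgn UMIs that lie in the 10 highest cells (right), by dose in mg/kg. Shares at 50 mg/kg lie at 2.38% or below, and the highest middle value, 8.33 UMIs, is the 50 mg/kg pool with 23 UMIs in 1 cell.

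Nrgn differed between clusters, which the authors had made from the same cells, so values between clusters are a description. As CPM of the cluster's own UMIs, the highest saline means of the CD8+ clusters were those of the exhausted CD8+ cells (C8), 224 ± 118 (SD, n = 3), the cycling Cd226lo CD8+ cells (C2), 157 ± 12.0, and the Tcf7hi CD8+ cells (C5), 145 ± 47.5, and the pools of these clusters overlapped. Among CD4+ clusters other than the rare C12, the cytotoxic cells (C7) had the highest saline mean, 105 ± 19.98, next to 93.9 ± 29.7 in cycling cells C6 and 92.3 ± 27.1 in cycling cells C3, also with overlapping pools. Cluster C12 (Th17 cells) had 19 Nrgn UMIs in 3 of 30 saline cells. These were 1.58% of the Nrgn UMIs with 0.657% of all UMIs, beside 8.33% with 6.19% in C7. The lowest saline mean of the CD8+ clusters was that of naive cells (C7), 16.2 ± 14.3, whereas naive CD4+ cells (C9) had 62.5 ± 16.5.

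Nrgn was called lower at 50 mg/kg in 7 of 8 CD4+ clusters in which it was tested and in 7 of 7 CD8+ clusters, beside 1.24% to 28.2% of the genes called lower in a CD4+ and 2.26% to 30.3% in a CD8+ cluster. These are cells of the pools by which Nrgn was chosen, and where its level at 50 mg/kg was near 0 it could pass the filter on low counts only through the other groups, so nothing is read from these counts. The cluster without a call was CD4+ C6, with Nrgn in 0 of 34 cells at 50 mg/kg, which allows a share of up to 8.82% of cells with a UMI. Exhausted CD8+ cells went from 224 ± 118 CPM with saline to 478 ± 31.6 (n = 2 pools) at 5 mg/kg and 1.87 ± 1.64 at 50 mg/kg. Cytotoxic CD4+ cells went from 105 ± 19.98 to 212 ± 59.98 and 18.7 ± 30.4. At 50 mg/kg, 2 of 148 cytotoxic CD4+ cells held 24 Nrgn UMIs, 23 of them in 1 cell, so the 18.7 CPM rests on that cell. The 5 mg/kg level of Nrgn was called higher in these 2 clusters and in cycling CD8+ cells C3, and lower in Cd226lo effector CD4+ cells (C1), beside 4.09% to 30.3% of genes called in a CD4+ cluster and 1.1% to 37.5% in a CD8+ cluster. Cycling CD8+ cells C2 held at 50 mg/kg 158 of the 287 Nrgn UMIs of the lineage (55.1%), with 35.1% of all UMIs.

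**Figure D3:**
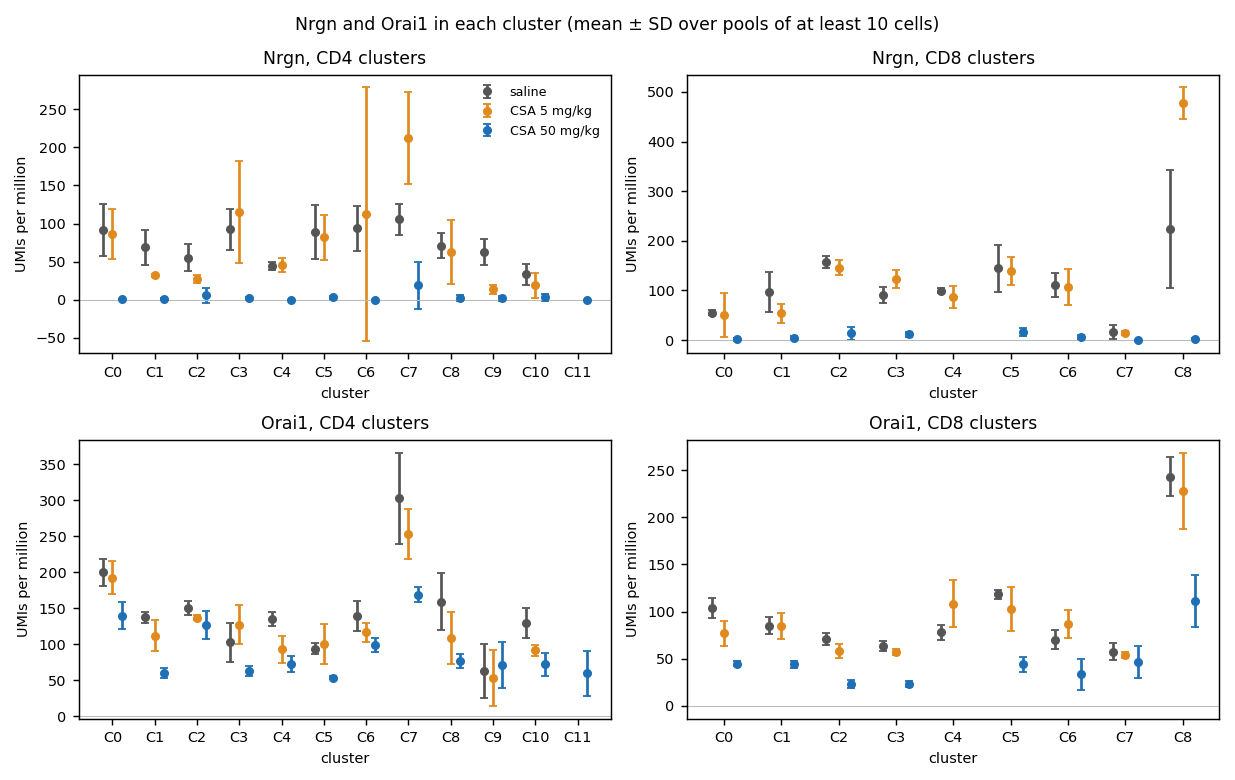
Nrgn (top) and Orai1 (bottom) in CD4+ (left) and CD8+ (right) clusters, as CPM of the cluster's UMIs, mean ± SD over the pools in which the cluster had 10 or more cells (groups with 2 or more such pools). Nrgn at 50 mg/kg lies at 18.7 CPM or below in every cluster drawn, and the 18.7 CPM of CD4+ C7 rests on 1 cell with 23 UMIs. Orai1 is highest in CD4+ C7 and CD8+ C8 in all 3 groups.

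Orai1 encodes the pore subunit of the store-operated channel. In CD4+ cells it stood at 139, 129 and 123 CPM with saline, at 139, 146 and 156 CPM at 5 mg/kg, and at 87.7, 90.3 and 99.6 CPM at 50 mg/kg. The CD8+ pools stood at 65.3, 66.5 and 71.0 CPM, at 83.3, 74.9 and 76.2 CPM, and at 38.8, 42.5 and 40.4 CPM. The 50 mg/kg pools lay below all others in both lineages. The change at 50 mg/kg was -0.49 ± 0.06 in CD4+ and -0.74 ± 0.06 in CD8+ cells. The 5 mg/kg change was 0.19 ± 0.06 and 0.20 ± 0.06 with TMM scaling but -0.17 and -0.22 with library size, so no direction is given at that dose. At 2000 UMIs per cell, the share of cells with an Orai1 UMI was 25.3%, 21.8% and 14.4% in CD4+ and 15.4%, 13.2% and 7.11% in CD8+ cells (saline, 5 and 50 mg/kg).

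Orai1 was highest in cytotoxic CD4+ cells, with 303 ± 63.3, 253 ± 34.7 and 169 ± 10.2 CPM over the 3 groups, and in exhausted CD8+ cells, with 243 ± 21.1, 228 ± 40.8 and 111 ± 27.4. In naive CD4+ cells it was 63.3 ± 37.4, 53.6 ± 39.1 and 71.3 ± 32.3, within the spread of the pools. It was called lower at 50 mg/kg in 5 of 9 CD4+ and 6 of 8 CD8+ clusters tested, beside the same ranges of 1.24% to 28.2% and 2.26% to 30.3% of genes, and nothing is read from these counts either.

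Stim1, the main sensor of store depletion, was lower at both doses in the sums of both lineages. In CD4+ cells it stood at 119, 108 and 105 CPM with saline, at 79.3, 71.2 and 72.9 CPM at 5 mg/kg and at 70.6, 71.9 and 72.3 CPM at 50 mg/kg. In CD8+ cells it stood at 89.5, 90.1 and 89.9 CPM, at 53.7, 60.6 and 57.9 CPM, and at 49.9, 59.5 and 60.3 CPM. The saline pools lay above all treated pools, and the treated groups overlapped each other, with 50 against 5 mg/kg at -0.05 ± 0.07 in CD4+ and -0.02 ± 0.07 in CD8+ cells. Against saline the changes were -0.57 ± 0.06 and -0.62 ± 0.06 in CD4+ cells and -0.64 ± 0.07 and -0.66 ± 0.06 in CD8+ cells at 5 and 50 mg/kg. Stim1 was called lower at 50 mg/kg in 6 of 11 CD4+ and 4 of 8 CD8+ clusters (1.24% to 28.2% and 2.26% to 30.3% of genes a cluster), again as a description, among them cytotoxic CD4+ cells, with 87.1 ± 23.5, 29.5 ± 2.53 and 23.2 ± 5.22 CPM in the 3 groups. The 5 mg/kg level was called lower in 4 clusters of each lineage (1.62% to 13.7% and 0.417% to 20.4% of genes a cluster). It was called higher in cycling CD4+ cells C6, with 140 ± 8.81 CPM under saline and 198 ± 27.1 CPM at 5 mg/kg (0.53 ± 0.17). Cytotoxic CD4+ cells had the highest Orai1 mean and, at 50 mg/kg, the lowest Stim1 mean of the CD4+ clusters, although their Stim1 pools overlapped with those of naive CD4+ cells (33.2 ± 17.6).

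Stim2 encodes the sensor that responds to smaller losses of store calcium. In CD4+ cells it stood at 35.6, 51.0 and 45.3 CPM with saline, at 35.9, 31.2 and 31.3 CPM at 5 mg/kg and at 35.3, 30.7 and 34.5 CPM at 50 mg/kg. The saline pools overlapped with the 5 mg/kg pools, and the lowest saline pool lay just above the highest 50 mg/kg pool. In CD8+ cells it stood at 35.4, 40.2 and 36.8 CPM, at 25.1, 23.0 and 23.2 CPM, and at 29.0, 27.2 and 27.2 CPM, with no overlap between saline and either dose. The changes at 5 and 50 mg/kg were -0.45 ± 0.11 and -0.41 ± 0.10 in CD4+ and -0.67 ± 0.08 and -0.43 ± 0.08 in CD8+ cells. By cluster, the 50 mg/kg level was called lower in 0 CD4+ clusters (7 not called) and in 2 CD8+ clusters (5 not called). Of all genes, 1.24% to 28.2% and 2.26% to 30.3% were called lower in a cluster, and these calls are a description.

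Calmodulin is encoded by more than 1 gene, and the sequences of Calm2 and Calm3 are shown because the genes give the same protein from different RNA, so their counts can be told apart. Calm2 lies at chr17:87433412-87446935 and Calm3 at chr7:16915379-16924114, both on the minus strand (GRCm38, GENCODE M21), each with 6 coding exons and 450 coding bases. The pair shared 372 of 450 coding bases (82.7%) and 100% of the 149 translated residues, and the longest run of identical coding bases was 17. The first 120 coding bases are given with the 18 bases that differ in capitals.
Calm2: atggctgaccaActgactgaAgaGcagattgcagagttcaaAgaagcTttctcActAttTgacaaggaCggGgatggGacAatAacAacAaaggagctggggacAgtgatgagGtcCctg
Calm3: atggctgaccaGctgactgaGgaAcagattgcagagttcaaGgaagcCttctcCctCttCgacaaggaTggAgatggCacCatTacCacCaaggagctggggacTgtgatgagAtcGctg

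Calm2 stood in CD4+ cells at 206, 222 and 240 CPM with saline, at 303, 286 and 291 CPM at 5 mg/kg and at 359, 349 and 327 CPM at 50 mg/kg. CD8+ pools held 226, 233 and 218 CPM, then 313, 290 and 310 CPM, and 324, 309 and 312 CPM. Treated pools lay above all saline pools, and the CD8+ pools of the doses overlapped. The changes at 50 mg/kg were 0.63 ± 0.05 in CD4+ and 0.48 ± 0.04 in CD8+ cells with TMM scaling, and 0.19 and -0.049 with library size, so in CD8+ cells the direction depends on the scale.

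Calm3 stood in CD4+ cells at 282, 296 and 293 CPM, at 348, 335 and 349 CPM, and at 438, 418 and 420 CPM. Its CD8+ levels were 335, 320 and 304 CPM, 395, 404 and 401 CPM, and 452, 408 and 453 CPM. No group overlapped with another in either lineage. The changes at 50 mg/kg were 0.55 ± 0.04 in CD4+ and 0.46 ± 0.05 in CD8+ cells with TMM scaling, and 0.11 and -0.075 with library size, with the sign turned in CD8+ cells. For 5 mg/kg the TMM differences of Calm3 also turned, to -0.11 and -0.098 with library size. At 2000 UMIs per cell, the share of cells with a UMI was, with saline and at 50 mg/kg, 37.6% ± 2.54 and 39.98% ± 1.46 for Calm2 and 46.8% ± 1.59 and 47.1% ± 0.785 for Calm3 in CD4+ cells. In CD8+ cells these shares were 39.3% ± 1.32 and 37.7% ± 0.982 for Calm2, and 51.8% ± 2.02 and 48.3% ± 1.88 for Calm3.

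Camk4 encodes a calmodulin-dependent kinase of the nucleus. In CD4+ cells it stood at 115, 120 and 137 CPM with saline, at 119, 112 and 114 CPM at 5 mg/kg and at 122, 130 and 131 CPM at 50 mg/kg, and the saline pools overlapped with those of either dose. In CD8+ cells it stood at 107, 115 and 117 CPM, at 84.8, 91.0 and 93.9 CPM, and at 95.7, 103 and 92.4 CPM, with the saline pools above all treated pools. The change at 50 mg/kg was 0.04 ± 0.06 in CD4+ cells with TMM scaling, which turned to -0.40 with library size, and -0.22 ± 0.06 in CD8+ cells. Without the cycling clusters the CD8+ change was -0.14 ± 0.07 and no longer past the threshold.

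**Figure D4:**
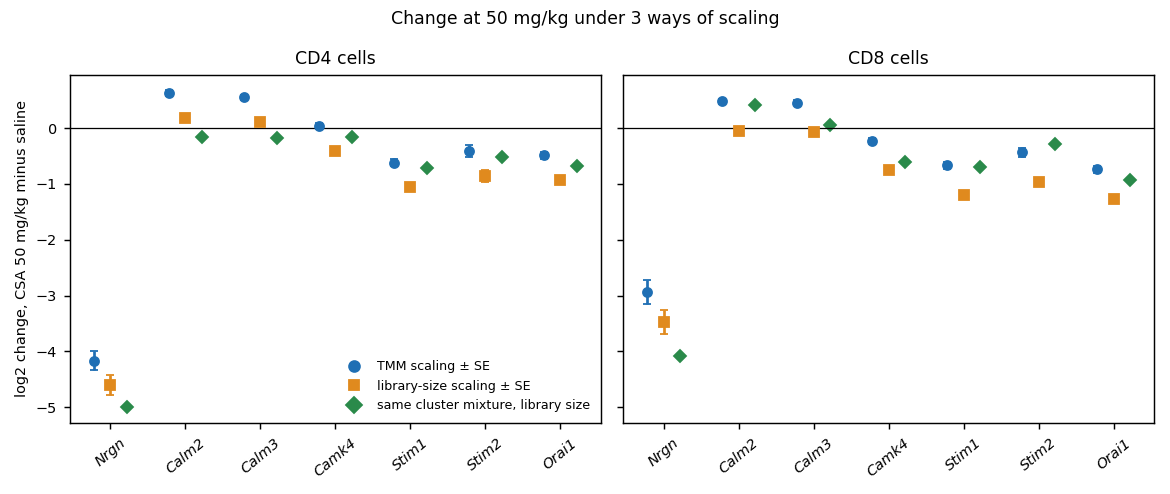
Log2 change of the 7 genes at 50 mg/kg against saline (vertical axis) in CD4+ (left) and CD8+ (right) cells with TMM scaling (circles ± SE), with library-size scaling (squares ± SE) and, on the library-size scale, with every pool given the cluster shares of the saline pools (diamonds). Nrgn, Stim1, Stim2 and Orai1 lie below 0 in all 3, and Calm2 and Calm3 change side. For the CD4+ diamonds, clusters C6, C11 and C12 were combined.

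The mixture of clusters differed between the groups, so each pool was also given the saline pools' mean cluster shares. On the library-size scale this moved the log2 ratio of 50 mg/kg to saline from -4.64 to -5.01 for Nrgn, from -1.06 to -0.72 for Stim1, from -0.83 to -0.52 for Stim2 and from -0.93 to -0.68 for Orai1 in CD4+ cells. The CD8+ ratio moved from -3.57 to -4.09 for Nrgn, from -1.20 to -0.70 for Stim1, from -0.96 to -0.29 for Stim2 and from -1.27 to -0.93 for Orai1. For Calm2 it moved from 0.19 to -0.16 in CD4+ and from -0.05 to 0.42 in CD8+ cells, and for Calm3 from 0.12 to -0.18 and from -0.08 to 0.05. Camk4 moved from -0.40 to -0.16 in CD4+ and from -0.75 to -0.61 in CD8+ cells. The SD over the 50 mg/kg pools was 1.62 for Nrgn and at most 0.10 for the other genes in CD4+ cells, and 0.68 for Nrgn, 0.35 for Stim1, 0.43 for Orai1 and 0.15 to 0.24 for the others in CD8+ cells. The CD8+ values rest in part on cluster C4, which held 31.5% of the saline UMIs but 20 cells at 50 mg/kg. In CD4+ cells, 3 clusters (C6, C11 and C12), with 19.02% of the saline UMIs and 116 cells at 50 mg/kg, were combined into 1 remainder. Cycling cells C6 held 17.9% of all saline UMIs. At 50 mg/kg C6 held 0.587% and regulatory cells C11 1.52%, so the remainder compares unlike cells. With CD8+ C4 and the CD4+ remainder left out, Nrgn, Stim1, Stim2 and Orai1 stood at -4.63, -0.77, -0.47 and -0.67 in CD4+ and at -3.61, -1.03, -0.87 and -1.30 in CD8+ cells. Calm2 and Calm3 then stood at -0.015 and -0.089 in CD4+ and at 0.079 and -0.093 in CD8+ cells. Nrgn, Stim1, Stim2 and Orai1 were below 0 with and without these clusters.

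The difference between the changes in CD8+ and CD4+ cells of the same pools was fitted as an interaction, on the pool sums by which the genes were chosen, so that the calls are a description. At 50 mg/kg it was 1.16 ± 0.21 for Nrgn, -0.17 ± 0.06 for Calm2, -0.29 ± 0.07 for Camk4 and -0.28 ± 0.09 for Orai1, all past the threshold, beside 19.8% of 11001 genes. It was -0.12 ± 0.05 for Calm3, -0.07 ± 0.09 for Stim1 and -0.05 ± 0.11 for Stim2. With 1 of the 6 pools of these groups left out in turn, the call was kept in 6 of 6 fits for Camk4, in 5 of 6 for Nrgn, and in only 2 of 6 for Calm2 and for Orai1. The Nrgn value was 0.74 without pool 3 of the 50 mg/kg group, where its call was lost. The values at 5 mg/kg ran from -0.24 to 0.26 and none was past the threshold, beside 3.65% of genes.

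TEa cells, which were left out of all sums above, numbered 123, 130 and 27 in the saline, 5 and 50 mg/kg groups. They came from the same pools and captures by which the genes were chosen, so they are no independent test. The 50 mg/kg pools held 11, 7 and 9 TEa cells with 5, 2 and 7 Stim1 UMIs. Stim1 was lower in TEa cells at both doses, by edgeR's quasi-likelihood test over 3902 genes of which 8.66% and 15.1% were called (at 5 mg/kg, log2 change -0.90 ± 0.26, adjusted p = 0.0295; at 50 mg/kg, -1.16 ± 0.38, adjusted p = 0.0385). Without the filter on low counts, neither Stim1 change passed. Calm2, Calm3, Camk4 and Orai1 did not pass (adjusted p from 0.289 to 0.988), and Nrgn and Stim2 were too rare to be tested. Nrgn had 22 UMIs of 530257 with saline, which is 41.5 CPM without TMM scaling. It had 9 of 765371 at 5 mg/kg, which is 11.8 CPM, and 0 of 229770 at 50 mg/kg, which allows up to 13.1 CPM. This limit covers counting error only. The TEa pools at 5 mg/kg (4.33, 20.1 and 11.9 CPM) lay below those with saline (43.8, 27.5 and 54.4 CPM), unlike the TMM levels of the other CD4+ cells. The limit at 50 mg/kg lies above the 5 mg/kg level, so the 2 doses cannot be ordered in TEa cells.

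The 4 genes whose levels were most like those of Nrgn over the 18 pool sums, among 5932 ranked, were Vax2, a homeobox gene (Pearson r = 0.983), and the inhibitory receptor genes Pdcd1 (0.968), Lag3 (0.950) and Tigit (0.946). The sums share captures and fall into those of 50 mg/kg and the rest, so r describes this pattern and is given with no p. Within the 9 CD8+ pools r was 0.982 to 0.998 and within the 9 CD4+ pools 0.962 to 0.985. In CD8+ cells Pdcd1 stood at 332 ± 17.1, 301 ± 16.0 and 33.4 ± 29.8 CPM in the saline, 5 and 50 mg/kg groups, and Vax2 at 23.8 ± 3.12, 39.7 ± 5.07 and 2.32 ± 1.79 CPM.

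Other genes of calcium handling were taken from 6 lists of 52 genes, of which 39 passed the filter on low counts. In CD4+ cells 9 rose and 20 fell at 50 mg/kg, beside 34.7% and 35.8% of all genes, and in CD8+ cells 10 rose and 18 fell, beside 37.1% and 36.9%, with medians of -0.27 and -0.16 beside -0.01 and 0.00 over all genes. With library size the split was 6 to 27 and 4 to 30. All p-values below are from edgeR's quasi-likelihood test, adjusted over all genes. The lists were written with earlier results of these data known. The genes named were picked for large changes among genes called in these pools, so their p-values are a description.

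Of 9 genes for release and refilling of the store, 8 fell in CD4+ and 5 in CD8+ cells and none rose, with medians of -0.77 and -0.26. Atp2a2, the calcium pump that refills the store, fell from 98.5 ± 2.18 to 50.3 ± 6.91 CPM in CD4+ cells (adjusted p = 1.85e-10) and from 104 ± 2.23 to 43.6 ± 3.23 CPM in CD8+ cells (adjusted p = 5.12e-12). Itpkb, a kinase that turns over the store-releasing inositol phosphate, fell by 1.06 and 0.91 on the log2 scale. Itpr3, a receptor for that messenger, fell by 0.90 and 0.70. Itpr2 fell by 0.89 in CD4+ cells, whereas its CD8+ change was -0.07 ± 0.07 (adjusted p = 0.351). With library size the CD8+ change of Itpr2 was -0.60 and called lower.

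Of 6 partners of store-operated entry, 2 rose and 2 fell in each lineage. Saraf, which inactivates the STIM and ORAI complex, rose from 184 ± 5.35 to 291 ± 5.00 CPM in CD4+ cells (adjusted p = 2.95e-11) and from 227 ± 5.48 to 409 ± 17.4 CPM in CD8+ cells (adjusted p = 8.51e-12), on both scales. Orai2 fell by 0.45 in CD4+ cells and did not pass in CD8+ cells with TMM scaling, but was called lower there with library size (-0.65). Esyt1 rose in CD4+ cells (0.43 ± 0.05, turned to -0.01 with library size) and fell by 0.16 in CD8+ cells. Orai3 rose in CD8+ cells (0.39 ± 0.09, turned to -0.14 with library size). In CD4+ cells Orai3 did not pass with TMM scaling but was called lower with library size (-0.50).

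Of 9 genes for export and membrane channels, 2 rose and 5 fell in each lineage. P2rx7, the ATP-gated cation channel, stood at 44.4, 55.8 and 56.9 CPM with saline, at 39.0, 39.8 and 39.9 CPM at 5 mg/kg and at 3.27, 3.84 and 3.58 CPM at 50 mg/kg in CD4+ cells (-3.88 ± 0.14 at 50 mg/kg, adjusted p = 5.83e-16). In CD8+ cells it was rare, falling from 5.02 ± 2.01 to 0.372 ± 0.139 CPM between saline and 50 mg/kg (adjusted p = 9.73e-07). It was the largest change among the 39 tested genes of the lists in both lineages. The calcium pumps Atp2b4 and Atp2b1 fell by 0.85 and 0.41 in CD4+ and by 1.04 and 0.69 in CD8+ cells, and the channel gene Trpm7 by 0.85 and 0.91.

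Of 7 mitochondrial calcium genes, 3 rose and 3 fell in each lineage. Smdt1, a subunit of the mitochondrial uniporter, rose from 224 ± 2.39 to 456 ± 1.91 CPM in CD4+ cells (adjusted p = 1.94e-15) and from 209 ± 1.63 to 481 ± 16.2 CPM in CD8+ cells (adjusted p = 1.43e-14), on both scales. The gatekeeper gene Micu2 fell by 0.27 in CD4+ and by 0.37 in CD8+ cells, and Letm1 rose by at most 0.23 ± 0.06 with TMM but was lower with library size in both lineages.

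Of 8 genes of calmodulin and its kinases, 2 rose and 2 fell in CD4+ cells, and 3 rose and 3 fell in CD8+ cells. The kinase gene Camk1d fell by 1.01 in CD4+ and 0.71 in CD8+ cells, and Camk2d by 0.56 and 0.26. Dapk2 fell by 0.22 in CD8+ cells (adjusted p = 0.0402) and did not pass in CD4+ cells. None of the other small IQ proteins on the list (Pcp4, Pcp4l1 and Gap43) passed the filter on low counts.

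**Figure D5:**
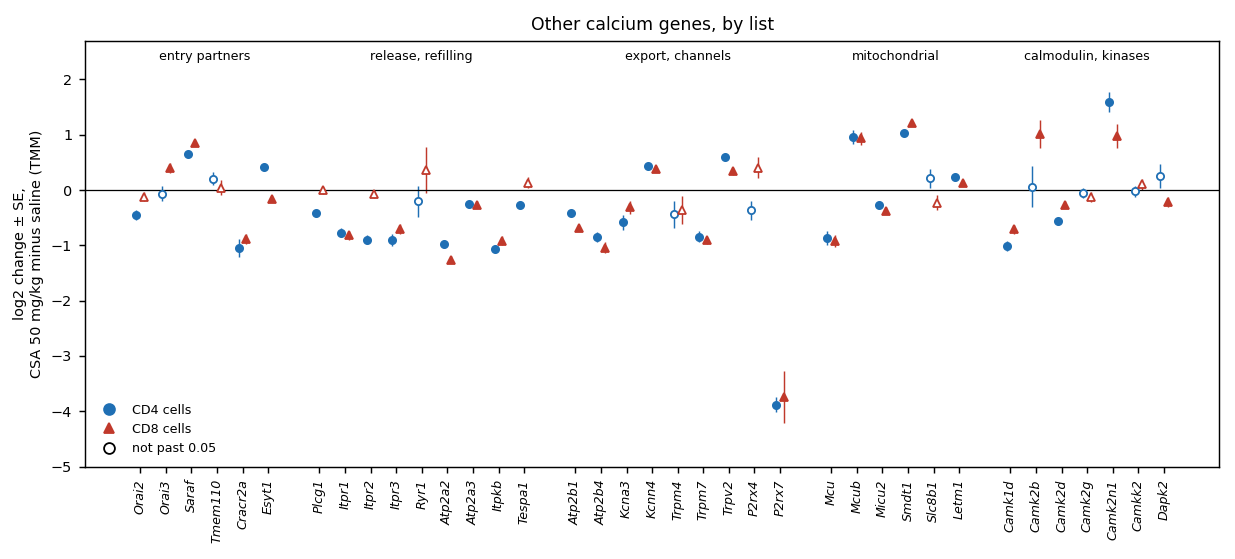
Log2 change ± SE at 50 mg/kg against saline (vertical axis, TMM scaling) of 37 of the 39 tested genes of 5 calcium lists (horizontal axis), CD4+ as circles and CD8+ as triangles, with open symbols for changes that did not pass 0.05. P2rx7 lies lowest at -3.88 and -3.74, and none of the filled symbols for release and refilling lies above 0.

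Markers of other cells stood beside these results as follows. Of 9 markers of platelets, a cell type known to hold Nrgn RNA, 4, 9 and 5 had UMIs in CD4+ cells of the saline, 5 and 50 mg/kg groups, and their sum was 0.713 to 1.65, 1.91 to 10.9 and 0 to 1.98 CPM. In CD8+ cells 3, 7 and 8 had UMIs, with sums of 0.455 to 1.13, 0.683 to 6.30 and 0.611 to 3.83 CPM, and Gp1bb was at 0 in every CD8+ pool. These sums were below the Nrgn level in all saline and 5 mg/kg pools. At 50 mg/kg the ranges of these sums and of Nrgn overlapped in CD4+ but not in CD8+ pools. How much Nrgn RNA goes with a marker UMI was not measured, so no source of Nrgn is read from these levels. The 6 myeloid markers summed to 78.8 to 109, 111 to 193 and 65.6 to 106 CPM in CD4+ pools, the 6 erythroid markers to 3.21 to 14.8, 5.37 to 6.83 and 27.7 to 37.0 CPM, and the neuronal markers found in the table to at most 0.501 CPM. In CD8+ pools the erythroid sums were 4.15 to 17.9, 4.99 to 10.6 and 24.6 to 48.7 CPM, and the myeloid sums 86.7 to 123, 120 to 130 and 98.2 to 119 CPM. The 5 B cell markers summed to 5.01 to 7.66, 5.69 to 14.4 and 3.03 to 4.12 CPM in CD4+ pools. Their CD8+ sums were 19.7 to 22.4, 21.5 to 31.2 and 18.1 to 19.1 CPM. The part of these markers in the results was not tested.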

How the data were processed

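Single-cell RNA was captured by a droplet 5′ method, with 1 capture per group, and the mice of each group were hashtagged in 3 pools. Per the submitters' processing notes the tools were Cell Ranger and Seurat 3.0.0 with the mm10 genome. The counts of UMIs per gene and cell were deposited by the authors with a table of cells that gives lineage, cluster, pool and TEa status, and 0 columns were left without a sample. The mitochondrial fraction of each cell's UMIs, also deposited by the authors, had pool medians that came to 1.56% to 1.83% of UMIs. Counts were summed per pool and lineage without TEa cells (CD4+ 10091 cells, CD8+ 10833 cells) and tested with edgeR 4.0.16 in R 4.3.3 (filterByExpr, TMM, quasi-likelihood test, all 9 pools in 1 fit, Benjamini-Hochberg threshold 0.05). The difference between lineages was fitted with the pool as a term. Cluster fits used pools in which the cluster had 10 cells or more, and TEa fits pools with 5 or more. Shares at 2000 UMIs are expected shares after thinning. The floor for a count of 0 was 3 counts. Intervals and floors cover counting error only.

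The 7 genes and the calcium lists were chosen with earlier results of these data known. From each list up to 4 genes are named, those with the largest change at 50 mg/kg in either lineage among genes called there, with a mean of at least 20 CPM in that lineage and no overlap of the pools. The genes most like Nrgn are those with the highest r of log2 CPM, up to 5. The values of 3 genes that these rules name are not reported here, and the counts over lists include them. CD8+ cluster names were matched to cluster numbers by cell numbers and checked on marker genes. Pools of a group share a capture, so p-values measure only the spread between pools. Alternatives were DESeq2 1.42.0, library-size scaling, no filter on low counts, only the pools compared, a replicate block, leaving out each pool, TEa cells included, rare clusters left out of the cluster-standardised ratios (added after seeing the data), and leaving out cycling clusters, cells under 2000 UMIs or the 1080 cells with 2 strong hashtags. Tested on simulated counts in which 200 genes differed by a log2 change of 1 between saline and 50 mg/kg, the fit recovered 162 (81%) in the CD4+ step over 10568 genes and 169 (84.5%) in the CD8+ step over 10841 genes. Coding sequences were read from GENCODE M21 on GRCm38.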

Additional observations from a re-analysis of the deposited data

Results flagged for a closer look

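The change at 50 mg/kg differed between CD8+ and CD4+ cells by the interaction test for 4 of the 7 genes, beside 19.8% of the 11001 genes tested. The test used the pool sums by which the genes were chosen, so the calls are a description. For Nrgn the CD8+ change minus the CD4+ change was 1.16 ± 0.21 (log2 ± SE), with -2.94 in CD8+ and -4.17 in CD4+ cells. Without pool 3 of the 50 mg/kg group it was 0.74 and no longer past the threshold, and without the pool as a term it was 1.20 and not past it. For Camk4 it was -0.29 ± 0.07, past the threshold with any 1 of the 6 pools left out. For Orai1 it was -0.28 ± 0.09, and the call was lost without pool 1 or 3 of the 50 mg/kg group or pool 2 or 3 of the saline group (-0.29, -0.22, -0.29 and -0.20). For Calm2 it was -0.17 ± 0.06, and the call was lost without pool 1 or 2 of either group (-0.16 and -0.15 at 50 mg/kg, -0.12 and -0.14 with saline) and without the pool as a term.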

How the results depend on the processing

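Of 203 values of the 7 genes at 50 mg/kg against saline under alternatives, 198 kept direction and side of the threshold. With library size in place of TMM, Camk4 in CD4+ cells turned to -0.40, and Calm2 and Calm3 in CD8+ cells to -0.0485 and -0.0745. Without pool 1 of the saline group, the Camk4 value in CD4+ cells, past no threshold, turned to -0.0079 (range over left-out pools -0.0079 to 0.117). At 5 mg/kg, that scaling turned Nrgn (-0.0447), Calm3 (-0.11) and Orai1 (-0.17) in CD4+ and Calm3 (-0.10) and Orai1 (-0.22) in CD8+ cells, as it moves every gene by the same shift. Between the doses, it turned Stim2 in CD4+ (-0.0391) and Calm2 (-0.0571) and Camk4 (-0.00615) in CD8+ cells. The Stim1 value between the doses, near 0, turned without the cycling clusters (0.0749 in CD4+, 0.163 in CD8+), with cells of at least 2000 UMIs (0.0504 in CD4+), and in CD8+ cells with pools left out (-0.0723 to 0.0570). The difference between lineages turned for Calm2 at 5 mg/kg with library size (-0.0242) and for Stim2 at 50 mg/kg with pools left out (-0.121 to 0.0247). With TMM scaling and all pools and cells, the Stim1 values between the doses and these differences between lineages were not past the threshold. By contrast, the TMM values of Calm2 and Calm3 in CD8+ cells at 50 mg/kg were past it. So were those of Nrgn, Calm3 and Orai1 that turned at 5 mg/kg. Without the cycling clusters, Camk4 in CD8+ cells was -0.14 and no longer past the threshold, and 2836 genes in place of 4443 were called between the doses in CD8+ cells. The cause was not tested. At 5 mg/kg the Nrgn call was lost with DESeq2 (0.32 in CD4+, 0.59 in CD8+), and in CD4+ cells without pool 1 of the 5 mg/kg group (0.27) and without the cycling clusters (0.14). The Orai1 call in CD4+ cells was lost without pool 3 of the 5 mg/kg group (0.13), without pool 3 of the saline group (0.14) and without the cycling clusters (0.10). With the cluster shares of the 50 mg/kg pools in place of those of saline, the standardised log2 ratio was 0.14 for Calm2, -0.0124 for Calm3, -0.44 for Stim2 and -0.75 for Orai1 in CD4+, and 0.11 for Calm2 and -0.68 for Stim2 in CD8+ cells. With the rare clusters left out, it moved beyond the spread of the pools for Calm2 (-0.0152) and Camk4 (-0.275) in CD4+ and for Calm2 (0.0793) and Stim2 (-0.873) in CD8+ cells. In TEa cells 530 in place of 338 genes were called at 5 mg/kg with library size, and Stim1 was -0.73 and -1.12 without the filter on low counts. Orai1 in TEa cells turned to 0.148 and 0.0178 at 5 and 50 mg/kg without that filter, and Calm3 (-0.146) and Camk4 (-0.226) turned at 50 mg/kg with library size, all past no threshold. Leaving out 1 pool gave 306 values with the same call and direction, 25 that lost the call, 1 that gained it and 4 that changed sign, none of them past the threshold.

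The pool numbers did not pair the samples, with correlations of same-numbered deviations from -0.09 to 0.07. With a replicate block, 7433 genes were called in CD4+ and 7977 in CD8+ cells at 50 mg/kg, against 7454 and 8024, and 29 and 26 of the calcium list genes, against 29 and 28. For the difference between lineages, leaving the pool out as a block gave 219 genes in place of 402 at 5 mg/kg. The Nrgn sums at 50 mg/kg rest on 68 UMIs in CD4+ and 287 in CD8+ cells, which limits the precision of its change.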
